A study of Mus musculus with 16 samples.

Results

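The comparison described here sets the suprabasal cells of newborn Fvb/N mouse epidermis against the basal cells of the same tissue. All Fvb/N libraries were taken, 4 basal and 4 suprabasal, out of 16 libraries in the series, and they were chosen by their sample labels alone. Both groups are neonates of age p0 to p2 from the inbred strain Fvb/N, with the Dlx3 genotype given as WT, no transgene and no treatment named. Sheets of epidermis were dissected from the skin, and a Percoll density gradient parted the basal from the suprabasal cells. Total RNA of each fraction was made into libraries with an NEBNext Ultra II kit and sequenced, and the values are RPKM, reads scaled to the length of the gene and the size of the library. How many animals stand behind a library is not given in the sources used here, so a p-value here reflects how libraries of 1 fraction vary, a spread that may be technical. In bulk RNA, fewer cells of a type and less RNA per cell cannot be told apart.

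The epidermis renews itself from its lowest layer. Basal keratinocytes sit on the basement membrane through hemidesmosomes and integrins, divide, and answer to signals such as Wnt and hedgehog ligands. Cells that leave that layer stop dividing, switch from the keratins Krt5 and Krt14 to Krt1 and Krt10, and then build cornified envelopes, lipid lamellae and a set of proteases and inhibitors that together form the barrier. In the newborn mouse the epidermis also carries growing hair follicles, whose inner sheath and shaft have keratins of their own.

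Library depth, estimated from the smallest steps of length-adjusted RPKM, was 45.9 to 54.5 M reads in basal and 46.2 to 61.9 M reads in suprabasal libraries. Libraries of a fraction did not look alike in every respect. In the order of libraries 1 to 4, the ratio of Krt10 to Krt5 was 2.74, 3.13, 0.347 and 0.378 for basal and 286, 306, 13.1 and 85.3 for suprabasal cells, so the ratio was higher in basal libraries 1 and 2 than in 3 and 4, and suprabasal library 3 had the lowest of its fraction. Across the tested genes, suprabasal library 3 correlated with the basal libraries at 0.83 to 0.91, and the other suprabasal libraries at 0.67 to 0.84. The sample labels give replicates 1 and 2 of both fractions one run code and replicates 3 and 4 a later one. In the RPKM file's own header all basal libraries carry the earlier and all suprabasal ones the later code, and if the header is right, run and fraction cannot be told apart. Run codes below are those of the sample labels. The number of genes above 0 RPKM was 18816, 18943, 19041 and 18882 in basal and 19133, 19194, 21583 and 21766 in suprabasal libraries, so suprabasal libraries 3 and 4 stand above all others. The mean number above 0 was higher in the suprabasal fraction (exact two-sided permutation test, p = 0.0286, n = 4 and 4). That is the smallest p that 4 against 4 libraries allow. Genes at 1 RPKM or more numbered 11489, 11510, 11816 and 11775 in basal and 9889, 9829, 11397 and 10375 in suprabasal libraries. At that threshold the mean number was lower in the suprabasal fraction (exact two-sided permutation test, p = 0.0286, n = 4 and 4). All keratins together made up 15.6, 16.6, 7.26 and 7.44% of the summed RPKM for basal and 24, 23.3, 17.7 and 21.9% for suprabasal cells, in the same order, with the same exact permutation p of 0.0286.

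Of 24981 genes in the table, 11608 reached 1 RPKM in at least 4 libraries and were tested with limma on log2(RPKM + 1). At a Benjamini-Hochberg adjusted p under 0.05 over all of them, 1554 genes (13.4%) were higher and 7030 (60.6%) lower in suprabasal cells. The 2 fractions' libraries did not overlap for 7777 genes (67.0%). More genes fell than rose at each size of change, since 844 genes fell and 249 rose at least 4-fold, and 21 fell and 10 rose at least 16-fold. The median log2 change of all tested genes was −0.55, which is the level against which each list below has to be read, and it was 0.02 when libraries were rescaled to equal median ratio, and 0.01 under quantile normalization. After rescaling 3846 genes were higher and 3946 lower, so 49.4% of the calls were higher instead of 18.1%. Changes are log2 differences of suprabasal minus basal with n = 4 libraries per fraction, SE is the standard error of that difference, and library values are given in the order of libraries 1 to 4.

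**Figure D1:**
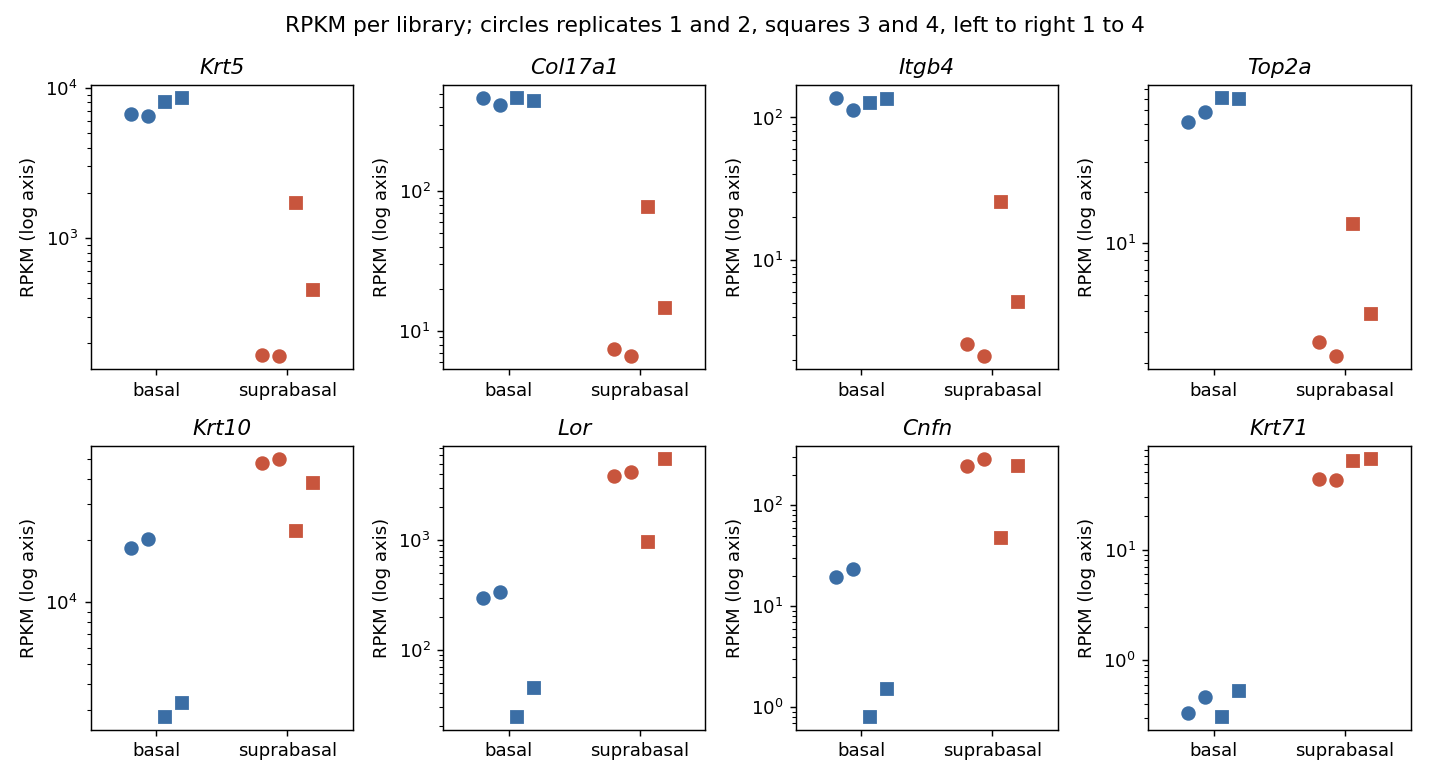
RPKM (log axis) of 8 genes in each of the 8 libraries, with circles for replicates 1 and 2 and squares for replicates 3 and 4. The 4 genes on the top row fell in suprabasal cells, with suprabasal library 3 as the highest of its fraction for each, and the 4 on the bottom row rose, with basal libraries 1 and 2 above 3 and 4 for Krt10, Lor and Cnfn but not for Krt71. Krt71 was under 1 RPKM in every basal library, so the filter for testing fixed its direction.

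For each of the 4 markers, Krt5, Col17a1, Krt10 and Lor, the libraries of the 2 fractions did not overlap, in the direction of the labels. The same lack of overlap, in either direction, held for 67.0% of all tested genes. Within basal libraries 1 and 2, however, Krt10 exceeded Krt5, at ratios of 2.74 and 3.13, and was the gene with the highest RPKM. Krt5, the keratin of basal cells, was at 6709.5, 6506, 7985 and 8563 RPKM in basal and 166, 164, 1701 and 448 RPKM in suprabasal libraries. Col17a1, a collagen of the hemidesmosome, was at 465, 416, 466 and 443 RPKM in basal and 7.41, 6.62, 76.6 and 14.5 RPKM in suprabasal libraries. For both genes the lowest basal library lay above the highest suprabasal one, and the highest suprabasal library was number 3. Krt5 fell by 4.28 (SE 0.684, adjusted p = 0.000473) and Col17a1 fell by 4.75 (SE 0.634, adjusted p = 0.000192). Krt10, the keratin of the spinous layer, was at 18382, 20379, 2770.4 and 3238 RPKM in basal and 47533, 50116, 22263 and 38254 RPKM in suprabasal libraries, without overlap, but basal libraries 1 and 2 came close to suprabasal library 3. Its rise of 2.31 (SE 0.856) was called at an adjusted p of 0.0339, and not when replicate number was a block (adjusted p = 0.0566) or after quantile normalization (0.102). The call was also lost when basal library 3 or 4 or suprabasal library 1, 2 or 4 was left out (adjusted p of 0.0643 to 0.14). Lor, loricrin, the most abundant envelope protein of cornified cells, was at 298, 338, 24.5 and 45.2 RPKM in basal and 3881, 4167, 961 and 5554 RPKM in suprabasal libraries. All suprabasal libraries were above all basal ones for Lor, suprabasal library 3 was the lowest of its fraction, and the rise was 4.87 (SE 0.904, adjusted p = 0.00108).

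Genes that anchor a basal cell to its matrix were far lower in suprabasal cells. All 6 hemidesmosome genes fell, with a median of −3.79, and 21 of 22 tested basement membrane genes fell, with a median of −3.45, where 60.6% of all genes were lower. Lamb3 and Lama3 encode chains of laminin-332, which the hemidesmosome binds. Lamb3 was at 141, 127, 141 and 152 RPKM in basal and 2.61, 2.61, 23.3 and 5.25 RPKM in suprabasal libraries and fell by 4.40 (adjusted p = 0.000128), and Lama3 fell by 3.47. Itgb4 and Itga6 form the laminin receptor of the hemidesmosome, and they fell, at −4.29 and −4.05. Itgb4 was at 137, 112, 126 and 134 RPKM in basal and 2.59, 2.12, 25.6 and 5.06 RPKM in suprabasal libraries. As with Col17a1, suprabasal library 3 kept the most of Lamb3 and Itgb4 and libraries 1 and 2 the least. Dst and Plec, the plakins that link hemidesmosomes to keratin filaments, fell, at −3.53 and −1.22, so Plec had the smallest fall of its list. Bcam, a laminin receptor of the immunoglobulin superfamily, had the highest level of the basement membrane list with 379.8, 351, 360.2 and 349 RPKM in basal and 10.5, 10.5, 60.6 and 17.4 RPKM in suprabasal libraries. It fell by 4.20 (adjusted p = 9.91e-05). Agrn and Hspg2, heparan sulfate proteoglycans of the basement membrane, fell, at −4.29 and −3.99, Col7a1, the collagen of anchoring fibrils, fell by 3.81, and Frem2, a Fraser complex protein, fell by 4.28. Nid1, which bridges laminin and collagen IV, was the one member not called, at 0.10 (adjusted p = 0.866).

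Integrin adhesion genes beyond the hemidesmosome fell in 20 of 24 cases and rose in none, with a median of −1.84, and after rescaling 17 fell and 3 rose. Itga3 was at 69.2, 60.9, 68.9 and 80.9 RPKM in basal and 1.29, 1.06, 12.1 and 2.47 RPKM in suprabasal libraries and fell by 4.21 (SE 0.508). Its partner Itgb1 fell by 3.48. Itgb5, a chain of a vitronectin receptor, did not follow: it was at 64.7, 59.5, 52.99 and 54.9 RPKM in basal and 60.8, 61.6, 55.6 and 57.8 RPKM in suprabasal libraries, a change of 0.03 (adjusted p = 0.846), and is called higher after rescaling (0.70, adjusted p = 0.00428). The matricellular gene Tnc fell by 4.28, and Smoc2, which encodes a calcium-binding matrix protein, fell by 4.19. Of 26 genes of actin and myosin, 16 fell and 1 rose with a median of −0.60, near that of all genes, and after rescaling 9 fell and 7 rose with a median of 0.08. Lasp1, an actin-binding protein of adhesion sites, fell by 3.33, and Msn, which ties actin to the membrane, fell by 2.88. Actg1, cytoplasmic gamma-actin, had the highest level of that list, 673, 645, 621 and 679 RPKM in basal and 745, 766, 502 and 642 RPKM in suprabasal libraries, with libraries that overlap and a change of 0.00 (adjusted p = 0.993) that is called higher after rescaling (0.68, adjusted p = 0.0367) and is −0.13 under quantile normalization.

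Genes of cell division fell almost without exception. Of 41 replication genes 40 fell, with a median of −2.24, and of 41 mitosis genes 40 fell, with a median of −2.89; none rose in either list, and 40 of each also fell after rescaling. Mcm5 and Mcm3 encode subunits of the replicative helicase. Mcm5 was at 37.8, 33.1, 48.3 and 42.8 RPKM in basal and 1.49, 1.57, 7.68 and 2.72 RPKM in suprabasal libraries and fell by 3.44 (SE 0.363, adjusted p = 8.27e-05). Mcm3 fell by 3.35, and Pcna, the sliding clamp, the replication gene with the highest level, fell by 1.75. Top2a, which untangles chromosomes, was at 51.03, 58.8, 71.1 and 70.2 RPKM in basal and 2.63, 2.18, 12.96 and 3.83 RPKM in suprabasal libraries. No suprabasal library reached a basal one for Mcm5 or Top2a, and library 3 was again the highest of its fraction. Top2a fell by 3.58 (SE 0.411, adjusted p = 0.000105). In suprabasal libraries 1 to 4 the median mitosis gene stood at 4.10%, 4.25%, 21.7% and 7.42% of its basal mean, and the median replication gene at 8.15%, 8.37%, 25.6% and 13.6%. The same share was 2.15%, 1.87%, 27% and 5.55% for hemidesmosome genes and 3.32%, 2.91%, 22.5% and 6.89% for basement membrane genes, so library 3 held the largest share of the basal level for each of these lists.

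The 3 genes that rose in the list of cell cycle brakes and drivers are all brakes, though after rescaling 7 members were higher and under quantile normalization 6. Cdkn1a, the inhibitor p21, was at 87.9, 84.4, 51.96 and 56.1 RPKM in basal and 187, 187, 112 and 167 RPKM in suprabasal libraries, without overlap, and rose by 1.22 (adjusted p = 0.0013). Cdkn2b, the inhibitor p15, rose by 1.76, and Sfn, the 14-3-3 protein of stratified epithelia, by 0.82 (adjusted p = 0.0264, not called after quantile normalization, 0.0754). The call for Sfn was also lost without basal library 3 or 4 or suprabasal library 1, 2 or 4 (adjusted p of 0.0606 to 0.0848). Ccnd2, a G1 cyclin, was at 70.4, 70.9, 114 and 117 RPKM in basal and 1.75, 1.75, 19.2 and 4.98 RPKM in suprabasal libraries and fell by 4.05 (adjusted p = 0.000267). Wee1, the kinase that holds back mitosis, fell by 3.24. Over the whole list 23 of 31 genes fell, and 17 after rescaling.

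Division genes are known for a small set of promoter motifs. The letters CCAAT are bound by NF-Y. The letters TTTGAA are the cell cycle genes homology region (CHR). An E2F-like site is TTTGGCG, and TTCCCGC was counted as one too. Each motif was searched on both strands of RefSeq promoter windows of GRCm38.p6 that run from 250 bases before to 50 after the start, which were found for 9279 of the 11608 tested genes (79.9%). CHR stood in 24 of 35 windows of mitosis genes (68.6%), in 12.1% of windows of replication genes and in 12.1% of all windows. E2F-like sites stood in 19 of 33 windows of replication genes (57.6%), in 5.71% of windows of mitosis genes and in 11.4% of all windows. CCAAT stood in 74.3% and 63.6% of the windows of the mitosis and replication lists and in 39.1% of all. These matches are counts of letters, and binding was not measured. The 120 bases before the start of Cdk1, the mitotic kinase, and of Mcm6, another helicase subunit, are shown because they hold these motifs together. They lie at chr10:69352913-69353032 on the minus strand and chr1:128359706-128359825 on the minus strand. Capitals mark matches to these 3 motifs on either strand.
Cdk1: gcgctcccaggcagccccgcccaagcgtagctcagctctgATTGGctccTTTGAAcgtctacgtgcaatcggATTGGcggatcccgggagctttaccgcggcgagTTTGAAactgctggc
Mcm6: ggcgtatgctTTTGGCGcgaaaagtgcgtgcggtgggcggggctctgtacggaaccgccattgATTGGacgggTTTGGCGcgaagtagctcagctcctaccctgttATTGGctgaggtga

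Cdk1 was at 10.01, 11.02, 14.9 and 17.8 RPKM in basal and 0.502, 0.631, 2.93 and 1.03 RPKM in suprabasal libraries and fell by 2.75 (adjusted p = 9.7e-05). Mcm6 was at 24.8, 25.4, 39.9 and 39.4 RPKM in basal and 1.27, 1.13, 7.09 and 2.35 RPKM in suprabasal libraries and fell by 3.27 (adjusted p = 0.000131). Both were lower in every suprabasal than in every basal library.

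Signalling pathways came next. Among all tested genes 60.6% were lower, the share against which the pathway counts have to be read. All 12 tested hedgehog genes fell, with a median of −3.17, and 11 fell after rescaling. Shh, the ligand, fell by 3.21, Ptch1, its receptor, fell by 3.54, Smo, the transducer, fell by 2.49, and Gli1, the effector and target, fell by 3.33. Ptch1 was at 77.2, 66.8, 82.4 and 87.3 RPKM in basal and 3.44, 2.77, 17.3 and 5.96 RPKM in suprabasal libraries (SE of the change 0.429, adjusted p = 0.000127). Its libraries are far apart, with suprabasal library 3 the highest of its fraction. Wnt pathway genes fell in 35 of 41 cases and rose in 4, with a median of −1.41, and after rescaling 29 fell and 5 rose. Of the ligands Wnt6 was at 57.7, 54.2, 62.5 and 62.2 RPKM in basal and 1.24, 1.38, 9.73 and 2.79 RPKM in suprabasal libraries and fell by 3.97, and Wnt10a and Wnt16 fell, at −3.72 and −3.36. Lgr6, a receptor for R-spondins, fell by 3.78 and Ctnnb1, beta-catenin, fell by 1.60, with the highest level of the list. The 4 that rose were Dkkl1 at 3.79, Wnt11 at 1.06, Porcn, which acylates Wnt ligands, at 0.93, and Nkd2, an inhibitor, at 0.77. Dkkl1, a relative of the Dickkopf antagonists, was at 27.6, 25.98, 2.49 and 3.74 RPKM in basal and 226, 238, 51.97 and 164 RPKM in suprabasal libraries (adjusted p = 0.00183). Every suprabasal library exceeded every basal one for Dkkl1, and basal libraries 1 and 2 lay well above 3 and 4.

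Notch ligands were lower in suprabasal cells, with Jag2 at 145, 125, 135 and 118 RPKM in basal and 3.27, 2.82, 22.8 and 5.09 RPKM in suprabasal libraries, a change of −4.23 (SE 0.502, adjusted p = 0.00012), and Dll1 and Jag1 falling, at −2.80 and −0.86. The call for Jag1 was lost after rescaling, where it stood at −0.22 (adjusted p = 0.324). Lfng, which adds sugars to the receptors, fell by 3.48 and the receptor Notch1 fell by 2.45. The receptors Notch2 and Notch3 were at 0.48 and 0.55 without a call (adjusted p = 0.056 and 0.0869), and so was the target Hes1 at 0.10 (adjusted p = 0.521). After rescaling all 3 are called higher, at 1.11, 1.21 and 0.76 (adjusted p = 0.00147, 0.00408 and 0.00459). Nrarp, a target and inhibitor, rose by 0.51 (adjusted p = 0.0204). Without basal library 3 or 4 or suprabasal library 1, 2 or 4 Nrarp was not called (adjusted p of 0.0561 to 0.0597). In all 13 of 24 Notch genes fell and 2 rose with a median of −0.49, but after rescaling 9 fell and 11 rose with a median of 0.14. Genes of the BMP and TGF-beta pathway fell in 27 of 31 cases, against 60.6% of all genes, and in 21 after rescaling. Among them were the inhibitor Fst at −3.44 and the ligand Bmp2 at −3.23. Id4 was the one member of that list called higher (2 were after rescaling), by 1.64, a target of BMP signalling in other tissues, with 4.97, 5.09, 3.88 and 3.79 RPKM in basal and 19.9, 20.1, 8.40 and 18.5 RPKM in suprabasal libraries. Id3, its relative, fell by 2.79. FGF and IGF genes fell in 16 of 18 cases, where 60.6% of all genes were lower, and in 10 after rescaling. Igfbp2, an IGF-binding protein, was at 349, 348, 315 and 286 RPKM in basal and 10.1, 11.7, 58.8 and 18.7 RPKM in suprabasal libraries, a change of −4.01. Fgfr2, the receptor for keratinocyte growth factor, fell by 3.28. Of the Hippo list 19 of 22 genes fell, against 60.6% of all genes, and 15 fell and 3 rose after rescaling. Yap1, the effector, was at −1.19 and its target Ctgf at −3.04. The EGF receptor list had 7 lower and 5 higher of 18 genes with a median of −0.09, which was 0.54 after rescaling. The inhibitor Lrig1 fell by 2.15 and Egfr fell by 0.78, while the ligands Areg and Btc rose by 1.26 and 0.92. Egfr stood at −0.16 without a call after rescaling (adjusted p = 0.372).

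In the list of AP-2, p63 and related factors 25 of 32 fell and 1 rose, with a median of −1.22 (21 and 5 after rescaling). Trp63, the p63 gene, was at 59.2, 51.6, 113 and 124 RPKM in basal and 8.27, 7.42, 50.1 and 12.8 RPKM in suprabasal libraries. The fractions did not overlap, but suprabasal library 3 lay just under basal library 2, and Trp63 fell by 2.42 (adjusted p = 0.00344). Sox4 and Foxm1, a driver of mitotic genes, fell, at −3.41 and −3.36. Tfap2b, Tfap2c and Tfap2a, AP-2 factors, fell, at −2.89, −1.10 and −0.86, the last without a call after rescaling (−0.19, adjusted p = 0.166). Factors linked to late differentiation moved both ways, 14 of 42 higher and 15 lower, with a median of 0.02 against −0.55 for all genes (25 higher and 9 lower after rescaling). The grainyhead family parted: Grhl1 and Grhl3 rose by 1.73 and 1.67, and Grhl2 fell by 2.14. Grhl1 was at 38.1, 37.3, 17.5 and 18.9 RPKM in basal and 97.2, 93.6, 85.5 and 81.9 RPKM in suprabasal libraries, and Grhl2 at 26.9, 25.01, 31.8 and 32.6 and 4.91, 4.46, 10.3 and 4.82 RPKM. Neither gene's libraries overlapped between the fractions. The OVO factors parted in the same way, since Ovol1 rose by 1.59 and Ovol2 fell by 1.98. Klf4, a factor needed for the barrier in mice, had the highest level of the list with 178, 155, 131 and 141 RPKM in basal and 329, 313, 239 and 267 RPKM in suprabasal libraries and rose by 0.92 (adjusted p = 0.000828). Dlx5 rose by 1.98, Elf3 by 1.46 and Zfp750 by 1.18. Among 20 nuclear receptors 12 fell, a share like that of all genes (60.6%), and 3 rose, while after rescaling 7 fell and 6 rose. Members changed in both directions, with Rara, a retinoic acid receptor, at a change of −1.57 and Rora at a rise of 1.28 (adjusted p = 5.32e-05).

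**Figure D2:**
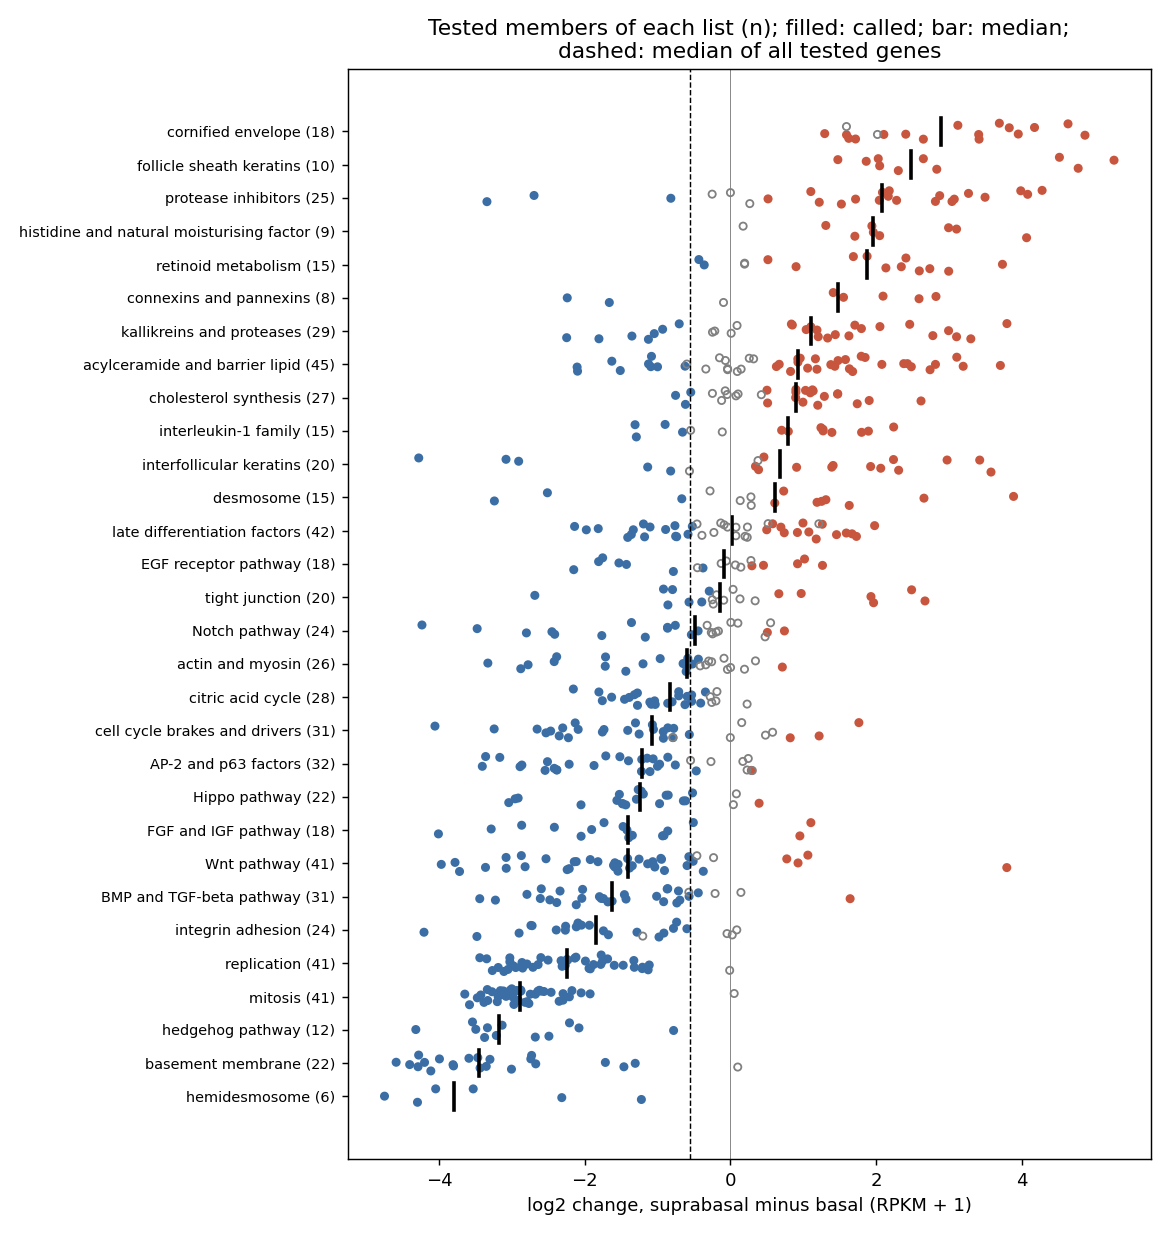
Change between the fractions (log2 of suprabasal over basal, RPKM + 1) of every tested member of 30 gene lists, 1 point per gene, filled where called, with a bar at the list's median. The dashed line is the median of all tested genes at −0.55. Hemidesmosome, basement membrane, hedgehog and division lists lie to its left and sheath keratins, the cornified envelope and protease inhibitors to its right. For sheath keratins under 1 RPKM in every basal library, the filter fixed the direction.

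Of 20 tested interfollicular keratins 13 rose and 5 fell, where 13.4% of all genes were higher. Krt14, the partner of Krt5, was at 5840.1, 6274, 6408 and 6662 RPKM in basal and 471, 474, 1731 and 787 RPKM in suprabasal libraries and fell by 3.08 (adjusted p = 0.000241), and Krt15, another basal keratin, fell by 2.91. Krt78 was at 33.9, 35.9, 2.43 and 4.28 RPKM in basal and 183, 188, 83.5 and 159.8 RPKM in suprabasal libraries and rose by 3.58 (adjusted p = 0.00233). The wound and activation keratins Krt6b, Krt6a and Krt16 rose by 3.42, 2.06 and 1.92, and Krt17 fell by 0.82, a call that was lost after rescaling (−0.14, adjusted p = 0.516). Reads of Krt6a and Krt6b can be shared, so how their rise splits between the genes is uncertain.

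Hair follicle keratins were low in every basal library. All 10 tested keratins and proteins of the follicle sheath, of 12 listed, and all 10 of the shaft, of 14 listed, rose. The medians were 2.48 and 2.44. A gene under 1 RPKM in every basal library was tested only if all 4 suprabasal libraries reached 1 RPKM. For such genes, among them Krt71, Krt27, Krt25, Krt35 and Krt85, the filter fixed the direction, so the counts are no evidence of a rise. Krt71, of the inner root sheath, was at 0.332, 0.459, 0.307 and 0.522 RPKM in basal and 43.1, 42.8, 63.8 and 66.6 RPKM in suprabasal libraries, the largest rise of the named genes at 5.27 (SE 0.171, adjusted p = 1.67e-06). Krt27 and Krt25, of the same sheath, rose by 4.77 and 4.52. Krt35, of the hair shaft, was at 0.49, 0.233, 0.766 and 0.946 RPKM in basal and 9.84, 9.66, 5.93 and 14.7 RPKM in suprabasal libraries and rose by 2.74. Krt85, another shaft keratin, rose by 2.60. For Krt71 and Krt35 no basal library reached 1 RPKM, and the basal libraries rich in Krt10 were no higher than the others. Summed over its list, the sheath reached 153, 152, 242 and 245 RPKM in suprabasal and 10.6, 9.76, 8.92 and 9.37 RPKM in basal libraries, and the shaft 39.7, 41.4, 66.8 and 81.9 and 2.19, 2.27, 3.23 and 3.88 RPKM.

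Of 23 listed genes of the cornified envelope 18 were tested. Of these 16 rose and none fell, with a median of 2.89, where 13.4% of all genes were higher. Cnfn, cornifelin, was at 19.5, 23.2, 0.809 and 1.51 RPKM in basal and 242, 289, 47.9 and 247 RPKM in suprabasal libraries. Its libraries did not overlap, yet within the basal fraction libraries 1 and 2 were far above 3 and 4. Cnfn rose by 4.63 (SE 0.939, adjusted p = 0.00174). Ivl, involucrin, a scaffold of the envelope, was at 11.3, 12.96, 0.87 and 1.54 RPKM in basal and 108, 109, 29.9 and 126 RPKM in suprabasal libraries and rose by 3.95 (SE 0.726). Nccrp1 rose by 4.17, Hrnr, hornerin, by 3.83 and Rptn, repetin, by 3.41. Lgals7, galectin-7, had the highest level of the list, 2047, 2533, 1566 and 1723 RPKM in basal and 5406, 6423, 2670.1 and 5471 RPKM in suprabasal libraries, and rose by 1.29 (adjusted p = 0.0113), a call that quantile normalization ended (0.104). Lce1a1 and Lce1m, late envelope genes with near-identical copies, were at 1.59 and 2.02 without a call (adjusted p = 0.0619 and 0.073), and both are called in the fit blocked by replicate number (adjusted p = 0.00204 and 0.000738). Of the transglutaminases, the enzymes that cross-link the envelope, Tgm1 was at 24.6, 22.2, 3.82 and 8.74 RPKM in basal and 123, 121, 78.7 and 114 RPKM in suprabasal libraries and rose by 3.07 (adjusted p = 0.00044), with Tgm3 and Tgm5 rising by 1.26 and 0.55.

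The letters TGANTCA, bound by AP-1 factors, stood in 9 of 16 windows of the envelope list (56.2%), in 9.23% of windows of genes called higher, in 4.16% of those called lower and in 4.88% of all. Among genes higher by at least 4-fold the share was 19.9%, and among those lower by at least 4-fold 4.74%. A TATAAA box stood in 43.8% of the envelope windows, 28.7% of those of genes higher by at least 4-fold and 7.2% of all. The envelope windows held no E2F-like site, where 11.4% of all windows did. Shown are the 120 bases before the start of Lor, with TGANTCA and TATAAA close together, of Ivl, with both farther apart, and, for comparison, of Krt10 and Col17a1. They lie at chr3:92083143-92083262, chr3:92573736-92573855, chr11:99389365-99389484 and chr19:47692043-47692162, all on the minus strand of GRCm38.p6. Capitals mark matches, on either strand, to TGANTCA, to TATAAA, to the CHR and NF-Y motifs above, and to the Kruppel-like motif CACCC.
Lor: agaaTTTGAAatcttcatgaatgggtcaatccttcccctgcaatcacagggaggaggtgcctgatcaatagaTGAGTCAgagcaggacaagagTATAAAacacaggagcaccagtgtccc
Ivl: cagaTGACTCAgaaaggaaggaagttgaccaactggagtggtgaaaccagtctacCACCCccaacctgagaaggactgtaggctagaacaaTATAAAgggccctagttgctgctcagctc
Krt10: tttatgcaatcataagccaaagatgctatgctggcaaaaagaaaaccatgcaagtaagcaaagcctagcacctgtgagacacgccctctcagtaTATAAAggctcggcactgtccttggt
Col17a1: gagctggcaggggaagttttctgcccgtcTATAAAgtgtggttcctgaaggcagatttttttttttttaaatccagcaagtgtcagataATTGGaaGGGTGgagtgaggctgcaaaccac

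**Figure D3:**
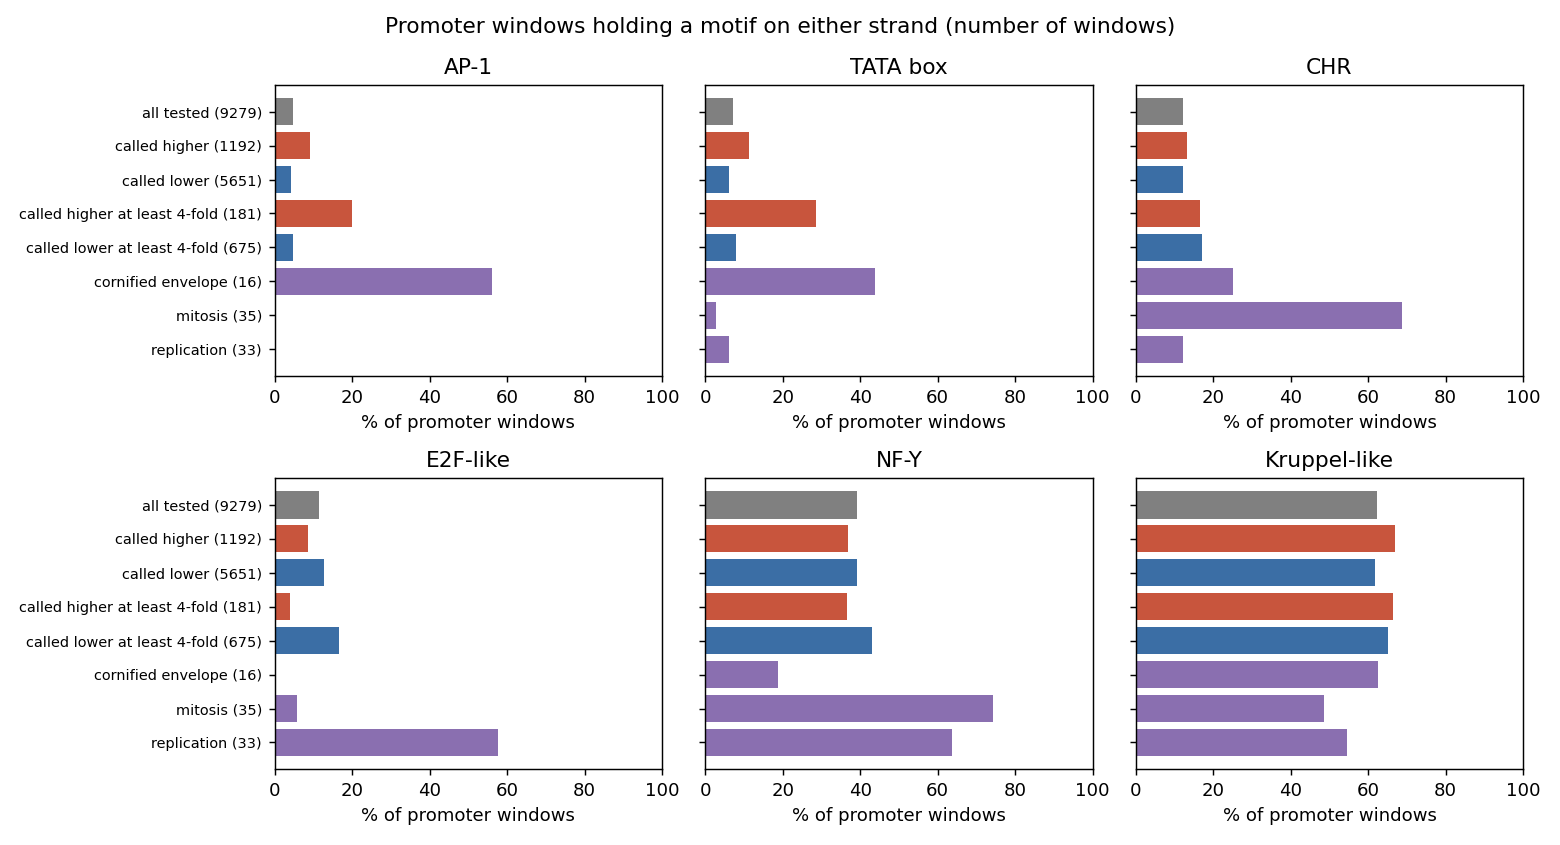
Percent of RefSeq promoter windows that hold each of 6 motifs on either strand, for all tested genes, genes called higher or lower, those changed at least 4-fold, and 3 gene lists. TGANTCA and TATAAA are most frequent in the cornified envelope list (56.2% and 43.8%), CHR in the mitosis list (68.6%) and E2F-like sites in the replication list (57.6%).

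Proteases that shed the outer layers and the inhibitors that restrain them were mostly higher. Of 29 kallikreins and other proteases 18 rose and 7 fell, and of 25 inhibitors 19 rose and 3 fell. Among all tested genes 13.4% were higher. Klk7 and Klk5, the kallikreins that cut corneodesmosomes, rose by 3.80 and 3.30. Klk7 was at 37.5, 39.6, 3.90 and 7.01 RPKM in basal and 298, 296, 90.6 and 279.7 RPKM in suprabasal libraries (adjusted p = 0.00124). Spink5, the inhibitor LEKTI that restrains those kallikreins, was at 20.7, 27.6, 1.75 and 3.62 RPKM in basal and 186, 204, 70.8 and 179 RPKM in suprabasal libraries and rose by 3.99 (SE 0.733, adjusted p = 0.00103). In both genes basal libraries 1 and 2 lay between the other basal and the suprabasal libraries. Cst6, cystatin M/E, which restrains cathepsins, rose by 3.27, and Stfa2, a stefin with near-identical copies, by 4.28. Stfa3 had the highest level of the inhibitors, with 1462, 2221, 939 and 956 RPKM in basal and 6254, 7748, 2953 and 5899 RPKM in suprabasal libraries. The cathepsins themselves parted, Ctsd rising by 1.04 and Ctss and Ctsl falling, at −2.25 and −1.80. Serpinh1, the collagen chaperone, fell by 3.34 and Timp3, an inhibitor of metalloproteinases, fell by 2.69.

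Enzymes that turn histidine-rich protein into natural moisturising factor rose in 8 of 9 cases, where 13.4% of all genes were higher. Hal, the histidase that makes urocanic acid, was at 26.04, 25.6, 1.24 and 3.24 RPKM in basal and 194, 189.6, 69.3 and 204 RPKM in suprabasal libraries and rose by 4.07 (SE 0.809, adjusted p = 0.00158). Casp14, the caspase of the cornifying cell, rose by 3.10, Asprv1, the skin aspartic protease, by 2.99, and Padi1, which citrullinates keratin, by 1.96. The nucleases Trex2, Dnase1l2 and Endou rose by 2.86, 2.01 and 1.84. Dnase1l2 was at 1.31, 1.07, 1.19 and 0.847 RPKM in basal and 6.77, 6.38, 5.69 and 12.3 RPKM in suprabasal libraries, and here basal libraries 1 and 2 did not stand above 3 and 4. Lmnb1, lamin B1, was at 55.7, 54.9, 75.2 and 69.7 RPKM in basal and 3.20, 3.16, 14.5 and 6.16 RPKM in suprabasal libraries and fell by 3.27 (adjusted p = 0.000115), with Tmpo and Lbr, proteins of the inner nuclear membrane, falling, at −2.55 and −1.5. In the list of nucleases and nuclear proteins 15 of 22 genes fell, where 60.6% of all did, and 5 rose, against 11 and 6 after rescaling. Autophagy genes fell in 12 of 28 cases and rose in 3 with a median of −0.32, but 13 rose and 3 fell after rescaling. Among them Atg9b was at 0.613, 0.419, 0.334 and 0.416 RPKM in basal and 6.81, 5.89, 10.7 and 8.78 RPKM in suprabasal libraries and rose by 2.62 (adjusted p = 4.94e-05). It was under 1 RPKM in every basal library, so it was tested only because all suprabasal libraries reached 1 RPKM. As with Krt71, the filter fixed its direction.

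Of 45 genes for acylceramides and other barrier lipids 26 rose and 9 fell, with a median of 0.93. Among all tested genes 13.4% were higher. Alox12b and Aloxe3, the lipoxygenases that oxidise the linoleate of acylceramide, rose by 3.71 and 3.20. Alox12b was at 14.6, 12.9, 0.691 and 1.85 RPKM in basal and 92.0, 91.5, 37.8 and 89.8 RPKM in suprabasal libraries (adjusted p = 0.00125). Elovl1 and Elovl4, which lengthen very long fatty acids, rose by 2.48 and 2.74, Cyp4f39, which hydroxylates their ends, by 2.38, and Pnpla1, which joins linoleate to the ceramide, by 2.08. Elovl1 had the highest level, with 76.9, 63.8, 23.4 and 25.96 RPKM in basal and 343, 337, 96.1 and 286 RPKM in suprabasal libraries, where suprabasal library 3 lay nearest the basal ones. Sdr9c7, a dehydrogenase of the same route, rose by 3.11, Abca12, the lamellar body transporter, by 1.63 and Ugcg, which makes glucosylceramide, by 1.48. The ceramide synthases parted, Cers3 rising by 1.17 and Cers2, Cers5 and Cers6 falling, at −2.1, −1.51 and −1.12. The desaturases Fads1 and Fads2 fell, at −2.1 and −1.63.

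Cholesterol synthesis genes rose in 17 of 27 cases and fell in 3, with a median of 0.90, where 13.4% of all genes were higher. Mvd and Pmvk, of the mevalonate steps, rose by 1.90 and 1.74, and Fdps, which makes farnesyl diphosphate, by 1.13. Mvd was at 18, 15.3, 7.24 and 5.80 RPKM in basal and 64.4, 65.4, 16.1 and 45.03 RPKM in suprabasal libraries, so the fractions overlap, with suprabasal library 3 below basal library 1 and the other suprabasal libraries above all basal ones. Hmgcs1, at the start of the pathway, was at −0.12 without a call (adjusted p = 0.511), while after rescaling it is called higher (0.55, adjusted p = 0.0472). Sult2b1, which makes cholesterol sulfate, rose most, by 2.62. Retinoid genes rose in 11 of 15 cases and fell in 2, against the same 13.4% of all genes higher. Rbp2 and Crabp2, which carry retinol and retinoic acid inside cells, rose by 3.73 and 3.0, and Rdh12, a retinol dehydrogenase, by 2.59. Rbp2 was at 10.9, 12.3, 0.73 and 1.56 RPKM in basal and 98.0, 109, 23.6 and 80.7 RPKM in suprabasal libraries. Fabp5, the epidermal fatty acid binding protein, had the highest level of that list, with 332, 301, 90.2 and 125 RPKM in basal and 1388, 1423, 783 and 1469.7 RPKM in suprabasal libraries, and rose by 2.74 (adjusted p = 0.000474).

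Cell contact genes moved both ways, where 13.4% of all genes were higher and 60.6% lower. Of 15 desmosome genes 8 rose and 3 fell, cadherins among both. Dsg2 and Dsg3, the desmogleins of the lower layers, fell, at −3.24 and −2.51, while Dsc1, the desmocollin of the upper layers, rose by 2.66. Dsg3 was at 33.2, 28.3, 37.7 and 45.7 RPKM in basal and 2.55, 2.14, 22.8 and 5.47 RPKM in suprabasal libraries, and Dsc1 at 94.7, 91.7, 9.70 and 14.97 and 299.8, 279, 138 and 205 RPKM. Suprabasal library 3 was the nearest to the basal libraries for both. Cdsn, corneodesmosin, was at 2.98, 2.35, 0.636 and 0.902 RPKM in basal and 34.3, 32.2, 20.9 and 76.5 RPKM in suprabasal libraries and rose by 3.89 (SE 0.408, adjusted p = 8.16e-05). The plaque protein Dsp, desmoplakin, was at 0.29 without a call (adjusted p = 0.274) and is called higher after rescaling (0.97, adjusted p = 0.00774). Claudins parted too, Cldn23 and Cldn4 rising by 2.67 and 2.49 and Cldn1, the main claudin of the epidermis, at 0.34 without a call (adjusted p = 0.0802). Cldn1 is called higher after rescaling (1.01, adjusted p = 0.000833) and under quantile normalization (0.48, adjusted p = 0.0157). Of 20 tight junction genes 6 rose and 7 fell with a median of −0.14, and 13 rose and 4 fell after rescaling. Cdh3, P-cadherin, fell by 3.57 and Nectin4 rose by 2.25, while the adherens list as a whole had 3 higher and 7 lower of 13 genes, not above the 60.6% of all genes, with 5 and 5 and a median that turned from −0.48 to 0.15 after rescaling. Of 8 connexins and pannexins 5 rose and 2 fell. Gjb5 rose by 2.82, Gjb2, connexin 26, by 2.1, and Panx1 fell by 2.24. Gja1, connexin 43, was at 231, 223, 140.0 and 172 RPKM in basal and 196, 188, 167 and 157 RPKM in suprabasal libraries, which overlap, with a change of −0.09 (adjusted p = 0.663) that is 0.58 after rescaling (adjusted p = 0.0525).

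Interleukin-1 family genes rose in 9 of 15 cases and fell in 4, where 13.4% of all genes were higher and 60.6% lower. Il1f5, the interleukin-36 receptor antagonist, was at 19.9, 19.3, 10.8 and 11.7 RPKM in basal and 84.3, 81.7, 46.1 and 94.5 RPKM in suprabasal libraries and rose by 2.24 (adjusted p = 0.000126), and Il1f9, interleukin-36 gamma, rose by 1.89. The receptor Il1r1 fell by 1.31. Of 12 antimicrobial and chemokine genes 6 rose and 5 fell (6 and 3 after rescaling). Cxcl14, a chemokine of normal epidermis, was at 266, 257, 450.0 and 486 RPKM in basal and 11.3, 11.3, 89.5 and 31.6 RPKM in suprabasal libraries and fell by 3.76 (adjusted p = 0.00046). Ccl27a fell by 2.43, and Pglyrp3, a peptidoglycan recognition protein, and Defb1, a defensin, rose by 1.73 and 1.36. Among 15 Ly6 and Lypd genes 8 rose and 5 fell. Slurp1, a secreted Ly6 protein, was at 5.55, 5.53, 0.0361 and 0.292 RPKM in basal and 56.7, 61.9, 5.72 and 42.7 RPKM in suprabasal libraries, so suprabasal library 3 was only just above basal libraries 1 and 2, and Slurp1 rose by 3.55 (adjusted p = 0.00447). Lypd5 rose by 3.83, and Ly6a and Cd59a fell, at −2.30 and −2.06. Calmodulins of the skin and of all cells moved apart: Calm4 and Calml3 rose by 2.86 and 3.40, and Calm2 and Calm3 fell, at −1.46 and −1.15. Calm4 was at 655, 842, 160.0 and 204 RPKM in basal and 3501, 3863, 1212 and 3133 RPKM in suprabasal libraries. The calcium list had 9 higher and 12 lower of 29 genes with a median of −0.21, and 16 higher and 5 lower after rescaling. S100a3, a calcium-binding protein of hair, rose by 3.18. In the transport list 21 of 34 genes fell, near the 60.6% of all genes, and 7 rose, against 16 and 11 after rescaling. Atp6v1c2, a subunit of the proton pump, was at 3.99, 3.999, 0.709 and 1.22 RPKM in basal and 41.5, 40.7, 19.1 and 38.7 RPKM in suprabasal libraries and rose by 3.47. Slc39a2, a zinc transporter, rose by 2.89, Car12, a carbonic anhydrase, fell by 2.48, and Aqp3, the water channel with the highest level of the list, was at −0.19 (adjusted p = 0.439), or 0.49 after rescaling (adjusted p = 0.0854).

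The medians of the housekeeping lists lay between −0.83 and 0.02, and most of them change sign when libraries are rescaled. The respiratory chain had 8 higher and 14 lower of 74 genes with a median of −0.04, and 51 higher and 0 lower after rescaling. The proteasome had 2 higher and 9 lower of 41, and 30 and 3 after rescaling. Translation factors had 3 higher and 12 lower of 34, and 18 and 2 after rescaling, while under quantile normalization they had 6 higher and 10 lower. The citric acid cycle differed in that 23 of 28 genes fell and none rose with a median of −0.83, and 13 fell and 5 rose after rescaling. Aco1, a cytosolic aconitase that also senses iron, fell by 2.16 and Sdhd, a subunit of succinate dehydrogenase, fell by 1.80. Ribosome biogenesis genes fell in 26 of 35 cases and rose in 1, against 5 and 8 after rescaling. Tcof1, treacle, which supports ribosomal RNA synthesis, was at 26.3, 24.99, 30.3 and 28.4 RPKM in basal and 2.38, 2.43, 7.01 and 3.15 RPKM in suprabasal libraries and fell by 2.68 (adjusted p = 6.47e-05). Glycolysis had 2 higher and 6 lower of 18 genes, and 12 and 1 after rescaling. The lactate dehydrogenase gene Ldhb fell by 1.98 and the aldolase gene Aldoc rose by 1.25. Of 35 genes of the Nrf2 and antioxidant list 11 rose and 16 fell, against 18 and 10 after rescaling, where the median turned from −0.05 to 0.63. The glutathione transferases Gsta1 and Gsta2, whose sequences are alike, rose by 2.93 and 2.75, and Mt2, a metallothionein, and Sod1 fell, at −3.09 and −2.34.

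Markers of cells other than keratinocytes were looked at in the same way. Melanocyte genes fell in 10 of 11 tested cases (also 10 after rescaling), where 60.6% of all genes were lower. Their summed level was 106, 114, 177 and 184 RPKM in basal and 14.9, 16.2, 35.5 and 16.6 RPKM in suprabasal libraries. Dct, an enzyme of melanin synthesis, was at 42.2, 52.1, 77 and 79.8 RPKM in basal and 3.79, 3.999, 14.2 and 5.32 RPKM in suprabasal libraries and fell by 3.15 (adjusted p = 0.000116). Langerhans and macrophage genes fell in 11 of 13 cases (also 11 after rescaling), with a summed level of 196, 195, 541 and 373 and 17.3, 17.6, 106 and 21.96 RPKM. Cd74, the invariant chain of antigen presentation, was at 86.3, 89.2, 217 and 135 RPKM in basal and 6.02, 6.05, 34.05 and 4.95 RPKM in suprabasal libraries and fell by 3.62. Basal libraries 3 and 4 held more of both lists than 1 and 2, and suprabasal library 3 more than the rest of its fraction. T cell genes summed to 17.5, 17.4, 45.6 and 39 and 2.90, 3.39, 23.7 and 7.30 RPKM. Only 3 of the 15 with values passed the filter, and those 3 fell. Fibroblast genes did not move as one, with 5 lower and 2 higher of 11. Dcn, decorin, was at 31.5, 37.9, 79.6 and 121 RPKM in basal and 2.98, 2.62, 15.4 and 9.48 RPKM in suprabasal libraries and fell by 3.07. Col3a1, a fibrillar collagen, was at 0.927, 1.04, 2.41 and 3.22 RPKM in basal and 5.95, 5.65, 28.8 and 40.7 RPKM in suprabasal libraries and rose by 2.50, with suprabasal libraries 3 and 4 the highest. Endothelial genes summed to 1.58, 1.69, 2.56 and 2.86 and 1.98, 2.30, 7.71 and 8.14 RPKM, and none of the 14 was tested. The defining markers were low throughout for endothelium (Pecam1 and Cdh5 under 1 RPKM), sebaceous gland (Awat2 and Mc5r under 1 RPKM, Awat1 at 1.09 RPKM in suprabasal library 3 and under 1 elsewhere), muscle (Acta1, Actc1 and Des under 1 RPKM) and fat (Adipoq and Plin1 under 0.1 RPKM, with Adipoq at 0 in 5 libraries). How much these cells add to the changes above was not tested.

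**Figure D4:**
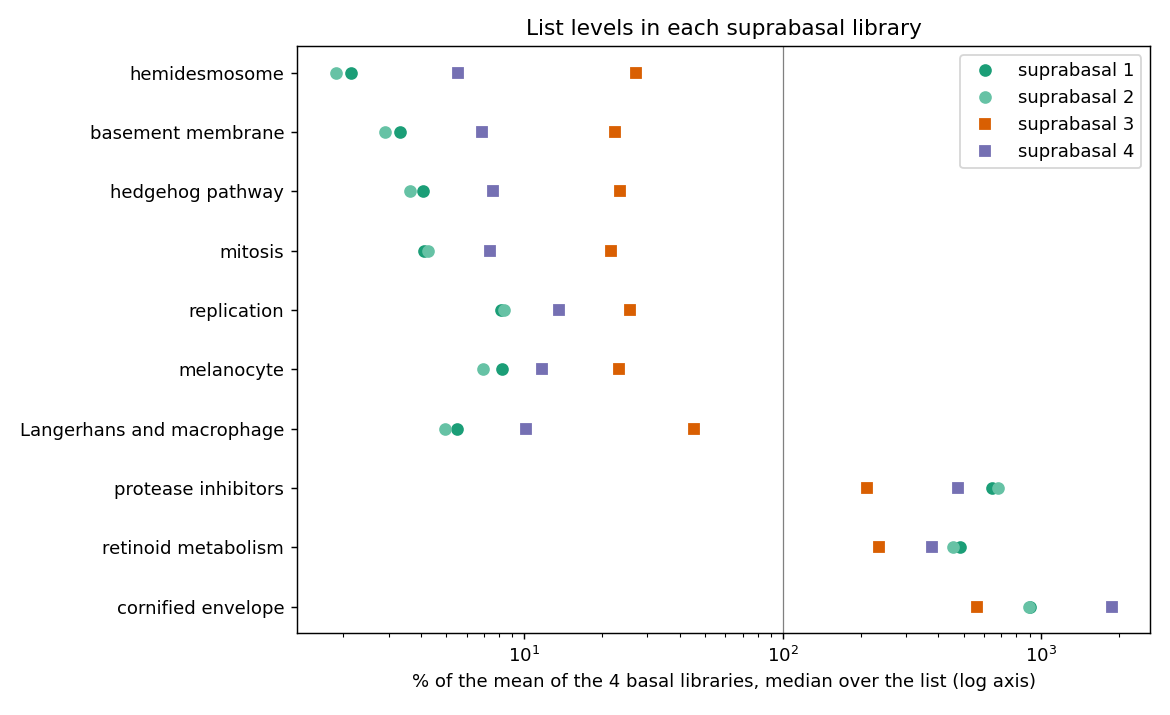
Median level of 10 gene lists in each suprabasal library as a percent of the mean of the 4 basal libraries (log axis), 1 point per library. For hemidesmosome, basement membrane, hedgehog, replication, mitosis, melanocyte and Langerhans genes libraries 1 and 2 are lowest, library 4 is next and library 3 is highest, and for the cornified envelope, protease inhibitors and retinoid genes library 3 is lowest.

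The libraries of the 2 run codes differed within each fraction. In the basal fraction 1068 genes (9.2%) differed between replicates 3 and 4 and replicates 1 and 2, 532 higher and 536 lower in the later. In the suprabasal fraction 273 genes (2.35%) did, 200 higher and 73 lower. Both counts rest on 2 libraries a side: with 1 library left out the basal count ranged from 91, without basal library 1, to 5253, without suprabasal library 3, and the suprabasal count from 10, without suprabasal library 2, to 7571, without suprabasal library 4. The list counts between run codes below share this limit. Hspa1b, an inducible Hsp70, was at 1687, 1482, 50.6 and 42.9 RPKM in basal and 604, 564, 99.5 and 411 RPKM in suprabasal libraries, a difference between run codes of −5.05 in the basal fraction (adjusted p = 0.00219). Its difference between the fractions was not called (0.33, adjusted p = 0.829). The value points down within replicates 1 and 2, at −1.44, and up within 3 and 4, at 2.09, a difference that was not called itself (adjusted p = 0.116). Heat shock genes as a list fell between the fractions in 20 of 29 cases, where 60.6% of all genes were lower, and rose in 4, and after rescaling 9 fell and 5 rose. Of 28 genes in the list of AP-1 and immediate early genes, 14 were lower and none higher in basal replicates 3 and 4. That list holds Hspa1b too, which is among the 14. Jun, a part of AP-1, was at 686, 577, 156 and 159.6 RPKM in basal and 135, 123, 56.01 and 120.4 RPKM in suprabasal libraries. Between the fractions Jun fell by 1.61 (adjusted p = 0.0216), a call that was lost after rescaling (0.202) and without basal library 1 or 2 or suprabasal library 3 (adjusted p of 0.0545 to 0.0577). The cornified envelope list had 10 of 18 genes lower and 2 higher in the later basal libraries, and retinoid genes 10 of 15 lower. Globin genes went the other way: Hba-a1 was at 1.05, 1.33, 26.1 and 95.8 RPKM in basal and 3.91, 4.92, 7.49 and 3.68 RPKM in suprabasal libraries, and the red cell list summed to 4.27, 4.05, 111 and 402 RPKM in basal libraries 1 to 4. Vim, the intermediate filament of mesenchymal and immune cells, was at 52.3, 53.9, 251 and 242 RPKM in basal and 9.74, 10.6, 85.8 and 26.1 RPKM in suprabasal libraries. It was 2.19 higher in the later basal libraries (adjusted p = 0.0221). In the suprabasal fraction the Lce1 genes led, with Lce1m at 0.0627, 0, 2.75 and 2.33 RPKM in basal and 1.21, 1.45, 19.6 and 31.1 RPKM in suprabasal libraries. Its difference between run codes was 3.47 (adjusted p = 0.000642), and 6 of 10 shaft keratins were also higher in suprabasal replicates 3 and 4.

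The change between the fractions itself differed between the run codes for 44 genes (0.379%), 43 with a higher signed value (suprabasal minus basal) in replicates 3 and 4. Cyr61, a matricellular gene and Hippo target, was at 134, 133, 19.9 and 22.9 RPKM in basal and 4.60, 4.28, 7.66 and 8.76 RPKM in suprabasal libraries, a difference of 3.35 between the run codes (SE 0.186, adjusted p = 0.00101). It fell in both run codes, at −4.63 in the earlier and −1.28 in the later, and its basal level was far higher in replicates 1 and 2 than in 3 and 4. Socs3, a feedback inhibitor of cytokine signals, was at 27.9, 24.4, 8.34 and 9.45 RPKM in basal and 4.79, 4.64, 10.5 and 8.90 RPKM in suprabasal libraries, with changes of −2.25 and 0.11 within the earlier and later run code (difference 2.36, adjusted p = 0.0146). The fractions overlap, and the change over all libraries, −1.07 (adjusted p = 0.0406), was not called once replicate number entered as a block (adjusted p = 0.0527) or without basal library 1 or 2 or suprabasal library 1, 2 or 4 (adjusted p of 0.0537 to 0.107). The call for Socs3 was also lost after rescaling, under quantile normalization and without a filter. Krt34, Krt81 and Krt86, keratins of the hair shaft, are among the 44, with differences of 1.76, 1.24 and 1.51, as are 5 histone genes, whose copies are alike. Clec2d, a ligand of a killer cell receptor, was the one gene of the 44 with a lower signed value in the later libraries (−1.60, adjusted p = 0.044). These 44 rest on 2 libraries per cell of the design, and leaving out any 1 basal library or suprabasal library 1 or 2 left 1 gene called, against 1293 without suprabasal library 3 and 4757 without suprabasal library 4.

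**Figure D5:**
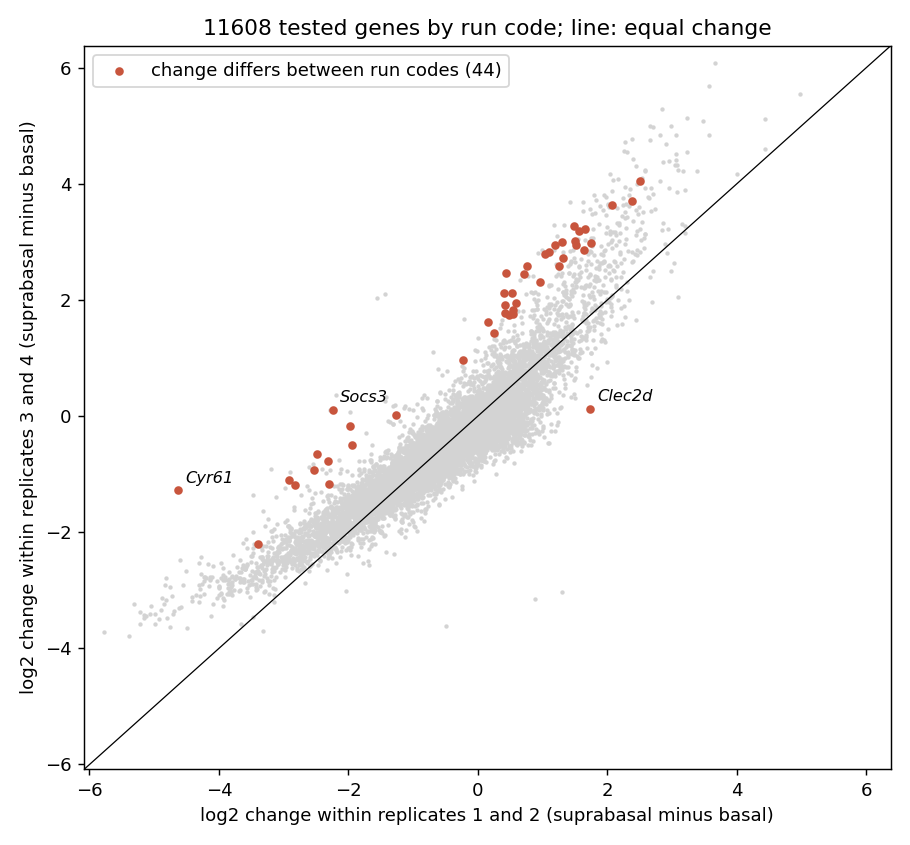
Change between the fractions (log2) of all 11608 tested genes within replicates 1 and 2 (horizontal axis) and within replicates 3 and 4 (vertical axis). The line marks equal change, the largest falls are smaller and the largest rises larger in replicates 3 and 4, the 44 genes that differ between run codes are marked, and Cyr61, Socs3 and Clec2d are named.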

How the data were processed

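The authors deposited RPKM values per gene for the 8 Fvb/N libraries, per the file headers. Per the submitters' processing notes, reads were demultiplexed with bcl2fastq 2.20.0.422 and handled with TopHat2 2.1.1 and Partek, and the genome build is mm10; the notes give no order of steps. The authors' own ratios and p-values were not used. RPKM is not a count, so log2(RPKM + 1) was fitted with limma 3.58.1 (R 4.3.3, intensity trend) over 11608 genes with at least 1 RPKM in at least 4 of 8 libraries, with Benjamini-Hochberg adjustment over all of them; the pseudocount of 1 understates the change of low genes. Run codes were compared in a fit of 4 cells, fraction by run code. Depth was estimated from the steps between low RPKM values, and no counting interval was given. Tested on simulated data made from these libraries (200 of 11608 genes changed), 84% of the 2-fold changes and 98% of the 4-fold changes between fractions were found, with 10 false calls among 192, and for the difference between run codes 34% and 95%, with 10 false calls among 139. The simulated noise was independent between genes and libraries, and far fewer genes changed than were called here. These rates therefore check the fit and need not hold for the data.

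The members and gene lists were chosen with earlier results of these data known, from textbook knowledge. Genes are named by rule: the 4 markers, the 15 called genes with the largest rise and the 15 with the largest fall, from each list the 2 called members with the largest change each way and the one with the highest level, and the 6 leading genes of each run contrast; other members complete a pathway. Replicate numbers come from the sample labels. Same-numbered basal and suprabasal libraries deviated together from their group means (r = 0.507, 0.567, 0.555 and 0.121 for numbers 1 to 4). Differently numbered libraries of a run code correlated at 0.0137 to 0.587, so these values cannot tell pairing from a shared run code. The replicate block took the numbers as pairs, as an alternative only. With run code as a term instead, 1729 genes were higher and 7345 lower. Promoter windows are RefSeq sequences of GRCm38.p6. Some genes that this rule covers are not reported here.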

Additional observations from a re-analysis of the deposited data

Results flagged for a closer look

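Of 134 groups of 4 libraries checked, 2 for each of the 67 genes given library by library, 15 had a library far from the other 3, that is a gap over the range above the critical value of 0.829, and chance flags about 1 in 20 groups. All were suprabasal. Library 3 was the low one for Alox12b (0.972), Atp6v1c2 (0.909), Cnfn (0.901), Elovl1 (0.856), Fabp5 (0.91), Hal (0.93), Id4 (0.903), Ivl (0.891), Jun (0.869), Klk7 (0.947), Slurp1 (0.837), Spink5 (0.877) and Tgm1 (0.829). It was the high one for Cd74 (0.905) and Grhl2 (0.892). The genes share libraries, so these flags are not independent.

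The change between the fractions differed between the run codes for 44 genes, by the test of the difference itself. Among the named genes its signed value, suprabasal minus basal, was higher in the later libraries by 1.62 for Cyp4f39, 3.35 for Cyr61, 1.20 for Id3, 1.76 for Krt34, 1.24 for Krt81, 1.51 for Krt86, 1.21 for Nectin4 and 2.36 for Socs3 on the log2 scale, and −1.60 for Clec2d in the other direction. The cause was not tested.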

How the results depend on the processing

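Scaling moved the calls most: 3846 higher and 3946 lower after rescaling, 3721 and 3797 with quantiles made equal (quantile normalization), against 1554 and 7030. Lists with more members higher than lower numbered 17, against 32 and 28, and those with more lower 38, against 24 after rescaling. Without a filter 2382 genes were higher, and with array weights 2347. With 1 library left out, 1305 to 1811 were higher and 6509 to 7436 lower. The difference in keratin share, 10 percentage points, ranged from 8.51 to 11.6 and that in genes above 0, 1498, from 1050 to 1927, at an exact permutation p of 0.0571, the smallest 3 against 4 allow.

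The 44 genes that differ by run code were 13 with a pseudocount of 0.1, 172 without a filter and 225 after quantile normalization, and 1 to 4757 with 1 library left out. Run code called 1799 genes in basal libraries after quantile normalization (91 to 5253 with 1 library left out, against 1068), and in suprabasal libraries 881 with a pseudocount of 0.1, 1330 without a filter and 1005 after rescaling (10 to 7571, against 273). The cause was not tested.

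With the replicate block 1685 genes were higher and 7142 lower, and of the 204 named genes called, Krt10 and Socs3 lost the call and no other; Lce1a1 and Lce1m gained it. In all 191 of 204 kept it under every alternative. With 1 library left out, Krt10, Sfn, Nrarp, Socs3 and Jun lost it in the cases given beside them, Vim without basal 3 or 4 or suprabasal 1 or 2 (adjusted p of 0.0575 to 0.0614) and Clec2d without basal 1, 2 or 3 or suprabasal 1 or 2 (0.0693 to 0.0918). Without suprabasal libraries 3 and 4 Jun and Krt10 lost it. Without a filter Clec2d, Jun, Krt10, Lgals7, Sfn, Socs3 and Vim lost it. After rescaling Socs3 and Vim lost it, besides the genes given above. Among values called in either setting, signs turned for Hmgcs1 (0.55) after rescaling, Gja1 (0.33) and Nid1 (−0.78) with array weights, Nid1 without suprabasal libraries 3 and 4 (−0.81) and in the earlier run code (−0.61), Hba-a1 (1.3) and Hspa1b (−1.44) in the earlier and Socs3 (0.11) in the later. Gja1 (0.58) and Aqp3 (0.49) also turned after rescaling, without a call. Depth limits values under 1 RPKM. Genes that did not reach 1 RPKM in at least 4 libraries were not tested. Genes under 1 RPKM in all libraries of a fraction could be, such as Krt71, Krt35 and Atg9b in the basal fraction.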

Other observations

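Several groups of genes lie outside the comparisons above. Of 11 tested sebocyte genes 2 rose and 2 fell, against 5 and 0 after rescaling. Dgat2, which makes triglyceride, rose by 2.81 and Acsbg1, an acyl-CoA synthetase, by 1.81. The summed level of that list was 194, 162, 119.5 and 119.8 RPKM in basal and 476, 458, 257 and 374 RPKM in suprabasal libraries. Krt77, a keratin of sweat ducts in humans, rose by 1.41, and Krt8, a keratin of simple epithelia and Merkel cells, fell by 1.14. Krt20 and Atoh1, which define Merkel cells, stayed under 1 RPKM in all libraries. Among immediate early genes Egr2 rose by 0.73 and Nr4a1 fell by 1.94. Of 11 tested S100 genes 5 rose and 5 fell (5 and 3 after rescaling), where 13.4% of all genes were higher. S100a9 rose by 1.49.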
